A study of Oryza sativa with 16 samples.

Results

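MADS3 (OS01G0201700, chromosome 1), MADS8 (OS09G0507200, chromosome 9) and MADS17 (OS04G0580700, chromosome 4) are rice genes for MADS-box transcription factors of the flower. The 3 genes were taken by identifier, all 3 were found, and they are 3 of the 34302 rows in the deposited table. Their names rest on the RefSeq gene table of another assembly, which lists each name on the chromosome that the identifier gives, so no coordinates are printed. The study sequenced total RNA from shoot apical meristems, dissected free of the leaf sheath, of wild type (WT) rice and of d1, a mutant in RGA1 with the d1-1 allele. RGA1 encodes the alpha subunit of the heterotrimeric G protein, and d1 plants are dwarf. All plants were grown in a greenhouse for 100 days, their age is labelled 3 months, and no treatment is named. The 8 groups are WT and d1 at panicle initiation stages 1, 2, 4 and 7, each with 2 libraries; about 40 M reads of 150 bases per library are stated. The labels neither define the stage numbers nor include a group between stages 4 and 7.

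A rice panicle branches first, then forms spikelet meristems, and only then floral meristems that make the organs of the floret. MADS-box proteins bind DNA as dimers and larger complexes, and different combinations of them specify lodicules, stamens and carpels. MADS3 is a C-class gene related to AGAMOUS of Arabidopsis, needed for stamen identity and for ending growth of the floral meristem. MADS8 is an E-class gene of the SEPALLATA type, whose products act as partners in these complexes. MADS17 belongs to the AGL6 group and is a close relative of MADS6, with which it shares roles in the floral meristem.

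The authors' table gives 1 combined value per gene and group, in FPKM (fragments scaled for the length of the transcript and the size of the library), so no value below has an SD between libraries. FPKM is scaled by transcript length, which allows levels of different genes to be compared. The RGA1 row (OS05G0333200, an identifier from general knowledge) ran from 27.5 to 30.2 FPKM across the WT groups and from 20.9 to 24.1 FPKM across the d1 groups. Its fitted difference of -0.36 ± 0.05 on the log2 scale had an adjusted p of 0.064 (limma), so it was not called. The labelled tissue was examined with identifiers written down as KNOX homeobox genes, which are markers of meristem cells. Of the 5 identifiers of the meristem list (KNOX genes and 1 gene of cytokinin activation) 3 were in the table, all written down as KNOX genes, and these lay between 39.2 and 478 FPKM in the 8 groups; their names could not be matched, so they are not given.

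MADS17 had the highest listed value of the 3 genes at every stage. Before stage 7 that order rests on values under 1 FPKM. In WT it had 0.74, 0.12, 0.15 and 49.8 FPKM at stages 1, 2, 4 and 7. In d1 it had 0.61, 0.098, 0.19 and 43.1 FPKM at the same stages. Both stage 7 groups were thus far above the other 6 groups, which all stayed under 1 FPKM. Stage 7 held 98.0% of the WT sum over stages and 98.0% of the d1 sum. The level at stage 7 was 332 times that at stage 4 in WT and 225 times in d1. The stage 4 values of 0.15 and 0.19 FPKM are so low that these ratios are imprecise.

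MADS8 was listed at 0 in WT at stages 1, 2 and 4 and had 26.3 FPKM at stage 7. In d1 it was listed at 0 at stages 1 and 4, had 0.035 FPKM at stage 2 and reached 39.04 FPKM at stage 7. This partner of the other floral factors therefore had a trace value in 1 of the 6 earlier groups. No ratio is given against groups listed at 0.

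MADS3, the C-class gene, had the lowest level of the 3 genes at stage 7. Its WT values were 0.020, 0.042, 0.014 and 4.66 FPKM at stages 1, 2, 4 and 7. Its d1 values were 0, 0.010, 0.028 and 5.99 FPKM. The 6 earlier groups were all at or under 0.042 FPKM, and both stage 7 groups were over 4 FPKM. From stage 4 to stage 7 the level changed 340-fold in WT and 211-fold in d1, from starting values so low that these ratios are imprecise.

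**Figure D1:**
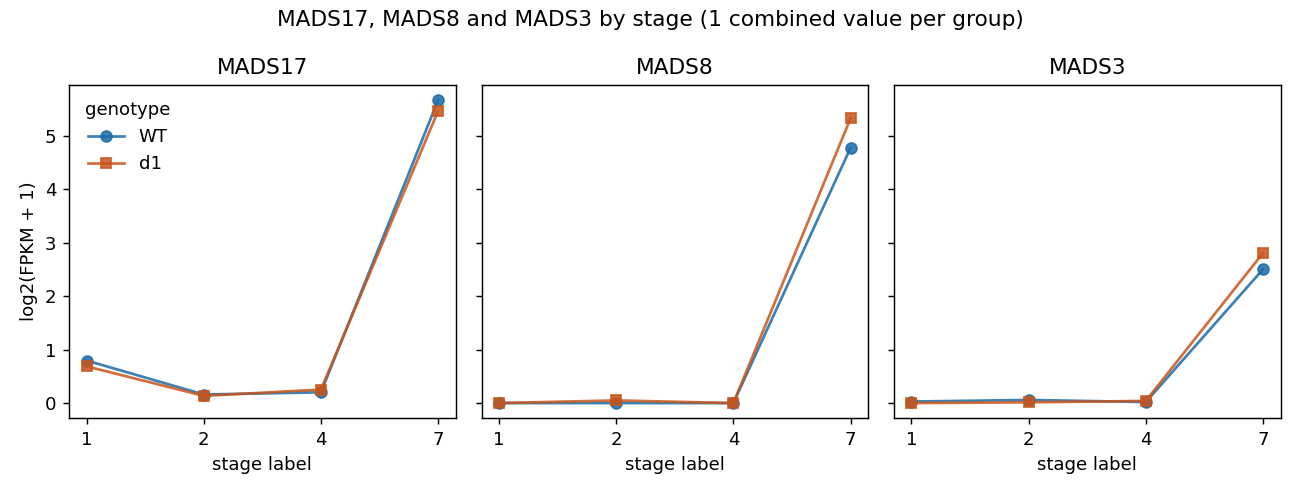
Level of MADS17, MADS8 and MADS3 (y axis, log2 of FPKM + 1) at the stages labelled 1, 2, 4 and 7 (x axis), with circles for WT and squares for d1. Each point is 1 combined value with no error bar. All 3 genes were under 1 FPKM in both genotypes up to stage 4, and at stage 7 they lay between 4.66 and 49.8 FPKM.

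The order of levels at stage 7 was MADS17, MADS8 and MADS3 in both genotypes. The distance between MADS17 and MADS8 was 1.89 times in WT and 1.10 times in d1, and without values per library it is not known whether either exceeds the spread between libraries. MADS8 was 5.65 times MADS3 in WT and 6.52 times in d1. Against the 19757 genes that had at least 1 FPKM in at least 2 groups, the level of MADS17 at stage 7 was above 87.1% in WT and 83.9% in d1. MADS8 was above 72.9% and 82.0%. MADS3 was above 28.1% and 34.2%, below the median of these filtered genes.

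The step from stage 4 to stage 7 was examined with a fit across all 19757 genes (limma on log2(FPKM + 1), genotype and stage as terms). MADS17 rose by 5.34 ± 0.12 on the log2 scale (moderated SE), with an adjusted p of 0.00053 (limma, Benjamini-Hochberg). MADS8 rose by 5.05 ± 0.18 with an adjusted p of 0.0017 (limma). MADS3 rose by 2.62 ± 0.16 with an adjusted p of 0.0047 (limma). All 3 genes thus rose over this step, where 1.91% of all tested genes were called higher and 1.97% were called lower. By size of this fitted rise MADS17 ranked 1, MADS8 ranked 3 and MADS3 ranked 27 among the 19757 genes. With a pseudocount of 0.1 in place of 1, the ranks were 2 for MADS17, 1 for MADS8 and 7 for MADS3.

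The rise over this step was present in each genotype taken alone. MADS17 differed between stages 7 and 4 by 5.46 in WT and 5.21 in d1 on the log2(FPKM + 1) scale. MADS8 differed by 4.77 in WT and 5.32 in d1. MADS3 differed by 2.48 in WT and 2.76 in d1. A difference of at least 2 was found for 77 tested genes in WT and 71 in d1, which is 0.39% and 0.359% of those tested.

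These tests have limits that bear on all 3 genes. The genes entered the fit only because of their stage 7 values, and without any filter on low values the adjusted p (limma) was 0.0053 for MADS17, 0.0084 for MADS8 and 0.0084 for MADS3. The SE pools, over all stages, how far the difference between WT and d1 varies from stage to stage, and is moderated with the other genes. The earlier stages, where the 3 genes had low values, count in it as much as stage 7 does. It does not measure the spread between plants. In bulk tissue, more cells that express a gene and more RNA per cell cannot be told apart.

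Between the ends of the series, all 3 genes again rose. The change from stage 1 to stage 7 was 4.82 ± 0.12 for MADS17 (adjusted p = 0.00015, limma), 5.05 ± 0.18 for MADS8 (adjusted p = 0.00023, limma) and 2.64 ± 0.16 for MADS3 (adjusted p = 0.00065, limma). Of all tested genes, 13.9% were called higher and 14.2% lower in this contrast, so a rise was far more common here than over the last step.

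**Figure D2:**
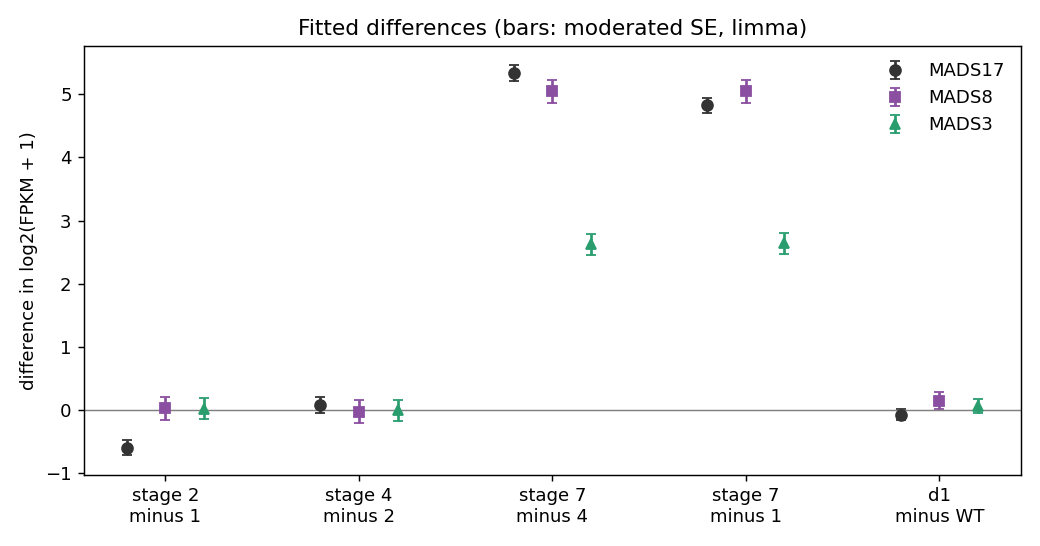
Fitted differences in log2(FPKM + 1) (y axis) for 5 contrasts (x axis), with circles for MADS17, squares for MADS8 and triangles for MADS3. Bars are the moderated SE of the limma fit. The contrasts that end at stage 7 lie between 2.62 and 5.34, and the 2 earlier steps and the genotype contrast lie between -0.59 and 0.15.

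Before stage 4 none of the 3 genes was called in either step. From stage 1 to stage 2 MADS17 had a difference of -0.59 ± 0.12, with an unadjusted p of 0.0032 and an adjusted p of 0.15 (limma). The value at stage 2 was 0.160 of that at stage 1 in WT and 0.161 in d1, so the ratio was alike in both genotypes, but the difference did not pass the threshold. Over this step 0.329% of tested genes were called higher and 0.081% lower. MADS8 and MADS3 both had 0.02 (adjusted p of 0.98, limma). From stage 2 to stage 4 the differences were 0.08 ± 0.12 for MADS17, -0.02 ± 0.18 for MADS8 and -0.01 ± 0.16 for MADS3, with adjusted p from 0.75 to 0.99 (limma). Here 3.69% of tested genes were called higher and 2.41% lower. The level of MADS17 at stage 1 was above 6.44% of the tested genes in WT and 4.39% in d1.

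The d1 and WT groups were then compared over the 4 stages, with stage as a block. MADS17 had a difference of -0.07 ± 0.08 (adjusted p = 0.64, limma), MADS8 of 0.15 ± 0.13 (adjusted p = 0.52, limma) and MADS3 of 0.06 ± 0.12 (adjusted p = 0.78, limma). None of the 3 was called, none had an unadjusted p under 0.05 in limma (0.29 to 0.61), and 0.243% of all tested genes were called in either direction. This does not show that the genotypes were alike, because the levels at 3 of the 4 stages were near 0.

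The genotypes can therefore be set side by side mainly at stage 7, with 1 value each and no test. MADS8 was higher in d1 than in WT, 39.04 against 26.3 FPKM, a ratio of 1.48 and a difference of 0.55 on the log2(FPKM + 1) scale. MADS3 was also higher in d1, 5.99 against 4.66 FPKM, with a ratio of 1.29 and a log2 difference of 0.30. MADS17 was lower in d1, 43.1 against 49.8 FPKM, with a ratio of 0.865 and a log2 difference of -0.20. The 3 genes thus did not share a direction. None reached a log2 difference of 1 at any stage, as 1.98%, 2.8%, 1.68% and 2.13% of tested genes did at stages 1, 2, 4 and 7. At stages 1, 2 and 4 the 3 genes were under 1 FPKM in both genotypes. Such values cannot differ by 1 on the log2(FPKM + 1) scale, so only stage 7 could have shown it. The median absolute difference of all tested genes at stage 7 was 0.16, and 8.13% of them differed at least as much as MADS8, 23.3% as much as MADS3 and 38.6% as much as MADS17. At stages 1, 2 and 4 the 3 genes differed between genotypes by -0.11 to 0.05.

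The timing was also described by a threshold, with no test. A gene was counted where it was under 1 FPKM in all 6 groups of stages 1, 2 and 4 and at 1 FPKM or more in both stage 7 groups. All 3 genes met this, as did 193 of the 34302 rows in all, or 0.563%. Within these 193 genes the median of the mean stage 7 level was 1.63 FPKM. MADS17 ranked 1, MADS8 ranked 2 and MADS3 ranked 9 by that mean. Only 3 of the 193 genes had a mean of at least 10 FPKM at stage 7, namely MADS17, MADS8 and OS04G0412500, the last named after its values were seen. With a threshold of 0.5 FPKM, 2 of the 3 genes were counted, since MADS17 exceeded 0.5 FPKM at stage 1 in both genotypes.

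**Figure D3:**
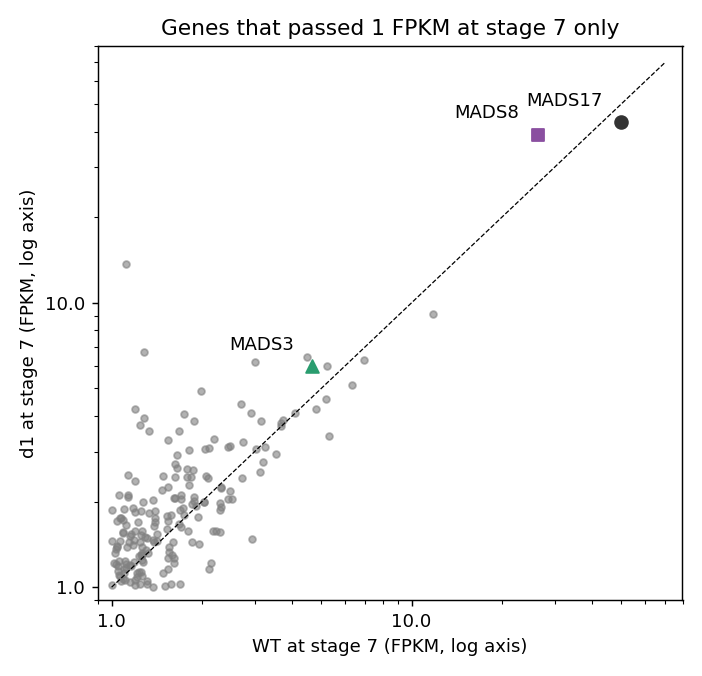
Level at stage 7 in WT (x axis, FPKM, log axis) against d1 (y axis, FPKM, log axis) for the 193 genes under 1 FPKM at stages 1, 2 and 4 and at least at 1 FPKM at stage 7 in both genotypes. Grey points are the other genes, and the dashed line marks equal levels. MADS17 (49.8 and 43.1 FPKM) and MADS8 (26.3 and 39.04 FPKM) lie apart from the other genes at the upper right.

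The genes whose profile was most like the mean of the 3 were found by Pearson's correlation of log2(FPKM + 1) over the 8 groups. The highest was that of OS10G0525000 (r of 0.999), which was at or under 0.036 FPKM in the 6 earlier groups and at 3.73 and 3.87 FPKM at stage 7 in WT and d1. The next was OS01G0240700 (r of 0.998), listed at 0 in the 6 earlier groups and at 1.18 and 1.41 FPKM at stage 7. Of 19754 genes compared, 114 had r of at least 0.95. Such an r rests almost wholly on the contrast between the 2 stage 7 groups and the other 6.

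The 2 other floral MADS-box genes that could be examined had other stage profiles. Of 24 written down, only these 2 were found in the table by an exact match of the identifier. The other 22 were not analysed here, so their profiles are not known. MADS14, an AP1/FUL-like gene of meristem phase change, had WT values of 16.8, 21.3, 43.1 and 32.6 FPKM and d1 values of 18.5, 27.8, 41.6 and 31.8 FPKM. It rose from stage 2 to 4 by 0.78 ± 0.11 (adjusted p = 0.022, limma), and its stage 7 minus stage 4 difference was -0.38 ± 0.11 (adjusted p = 0.15, limma). MADS47, of the SVP type, fell from stage 2 to 4 by 0.87 ± 0.13 (adjusted p = 0.025, limma) and its stage 7 values were 0.10 FPKM (WT) and 0.43 FPKM (d1). Over the last step, where 1.91% of all tested genes were called higher and 1.97% lower, 0 of these 2 genes were called (limma). Only MADS14 had an unadjusted p under 0.05 there (limma).

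Genes of the inflorescence and spikelet meristem were compared over the same last step. Of 16 written down, 12 were in the table and 10 were tested, of which 1 rose, 4 fell and 5 did not pass, where 1.91% of all tested genes were called higher and 1.97% lower. Their median difference was -0.82, against a median of 0.00 over all tested genes. SPL14, a promoter of panicle branching, fell by 2.39 ± 0.12 (adjusted p = 0.0027, limma), with WT going from 977 to 177 FPKM and d1 from 772 to 153 FPKM. LAX1, a bHLH factor of lateral meristem formation, fell by 1.41 ± 0.21 (adjusted p = 0.034, limma). SPL7, of the same family as SPL14, fell by 0.98 ± 0.13 (adjusted p = 0.025, limma). The member that rose and the fourth that fell could not be matched to a name.

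FZP, an ERF factor that keeps the spikelet from branching and lets florets form, came on 1 sampled stage before the 3 MADS genes. It was listed at 0 in both genotypes at stage 1. At stage 2 it was listed at 0 in WT and had 0.051 FPKM in d1. At stage 4 the WT value was 3.13 FPKM and the d1 value 4.04 FPKM. It rose from stage 2 to 4 by 2.15 ± 0.14 (adjusted p = 0.0042, limma), while its stage 7 minus stage 4 difference was -0.11 ± 0.14 (adjusted p = 0.76, limma). At stage 4, where FZP had its highest value in each genotype, MADS17 was at 0.30% of its own highest in WT and 0.45% in d1.

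**Figure D4:**
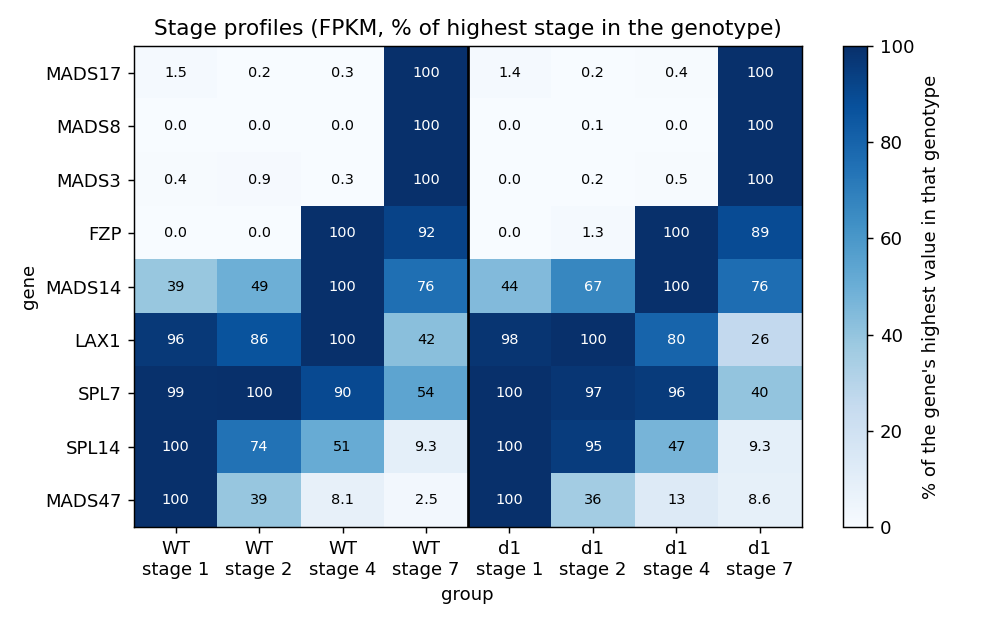
Level of 9 genes (rows) in the 8 groups (columns), as a percentage of the gene's highest FPKM among the 4 stages of that genotype. Darker cells are higher. MADS17, MADS8 and MADS3 are at 1.5% or less before stage 7 in both genotypes, whereas FZP and MADS14 peak at stage 4 and SPL14 and MADS47 at stage 1.

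Markers of meristem and leaf cells were measured beside these results. The summed level of the 3 KNOX identifiers went from 838 FPKM (stage 4) to 436 FPKM (stage 7) in WT, and from 830 to 472 FPKM in the mutant. Of these 3 identifiers 2 fell over this step, by 0.97 ± 0.07 (adjusted p = 0.0059, limma) and 0.84 ± 0.09 (adjusted p = 0.013, limma), and the third did not pass. Among all tested genes, 1.91% were called higher and 1.97% lower over the same step. The summed level of the 5 leaf photosynthesis identifiers in the table (of 8 written down) ran from 7.90 to 35.1 FPKM over the 8 groups, with none of the 5 at 0 in any group. Its WT value went from 7.90 FPKM (stage 4) to 23.6 FPKM (stage 7) and its d1 value from 11.3 to 11.6 FPKM. Of the 4 leaf identifiers tested, 0 were called over this step in limma, and 0 had an unadjusted p under 0.05. The part of the meristem and leaf markers in the result was not tested.

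A list of genes of anther development and meiosis was also measured. Of 6 written down, 5 were in the table. Their summed level at stages 1, 2, 4 and 7 was 176, 181, 138 and 127 FPKM (WT) and 164, 182, 143 and 130 FPKM (d1). This sum rested mainly on MSP1 and PAIR2, at 129 and 37.8 FPKM in WT at stage 1. In that group PAIR1 had 5.59 FPKM, UDT1 had 3.16 FPKM and TDR was listed at 0. TDR, a factor of tapetum degeneration, had at most 0.053 FPKM in all 8 groups and was listed at 0 in both stage 7 groups. UDT1, which acts in the early tapetum, had WT values of 2.74 and 5.09 FPKM at stages 4 and 7, and d1 values of 4.04 and 3.86 FPKM. From stage 4 to stage 7, 1.91% of all tested genes were called higher and 1.97% lower. None of the 4 tested genes of this list was called over this step (limma), with 1 at an unadjusted p under 0.05. That gene was MSP1, a receptor kinase that limits the number of sporogenous cells, with a difference of -0.21 ± 0.06 (unadjusted p of 0.015, adjusted p of 0.14, limma). MSP1 fell from stage 1 to stage 7 by 0.54 ± 0.06 (adjusted p = 0.0034, limma).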

How the data were processed

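The deposited values are FPKM, a unit read from the named tools and the range of values, since the table states none. Per the submitters' processing notes, the tools were Cufflinks, Cuffdiff, TopHat2, Trimmomatic and FastQC (listed here in no order, versions not stated) and the build was IRGSP-1.0. There are 8 columns for 16 libraries, 1 per genotype and stage, so both libraries of a group had been merged by the authors before deposit. The scaling between columns is not given. The depth behind a value is unknown. Among values under 0.1 FPKM, the most frequent log2 ratio between WT at stage 1 and each other column lay between -0.01 and 0.09 (bins of 0.02, holding 3.37% to 5.1% of these values). The summed FPKM per column ran from 621238 to 670519. Of 34302 rows, 54 join several names and 1 identifier is repeated. Listed identifiers were looked up by exact match and joined rows were not split. An identifier inside a joined row would thus count as not in the table.

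The filter required 1 FPKM or more in 2 or more columns (19757 genes) and the scale was log2(FPKM + 1), a scale that understates the change of low genes. The model (limma 3.58.1 in R 4.3.3, with a trended eBayes prior) had genotype and stage as terms, 3 residual and 2.54 prior degrees of freedom, and Benjamini-Hochberg adjustment over all genes. It uses 1 spread for all stages, and its p-values hold no spread between plants. The genotype contrast was run on simulated data. The outcome of that run is not reported here and is not used as support for the stage contrasts. Genes not members were named by fixed rules: the 2 with the highest correlation, and list members whose name the RefSeq gene table (assembly ASM3414082v1) holds on the same chromosome and in the same order. RGA1, the mutated gene, and OS04G0412500, chosen after its values were seen, are named outside these rules. The members and lists were chosen with earlier results of these data known. Alternatives were another pseudocount, other filters, 2 scalings, array weights, no trend and leaving out each stage.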

Additional observations from a re-analysis of the deposited data

How the results depend on the processing

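The rises of MADS17, MADS8 and MADS3 from stage 4 to 7 and from stage 1 to 7 stayed past the threshold under all 9, 9 and 8 alternatives that could test them (limma), with log2 changes from stage 4 to 7 of 5.31 to 7.42, 5.02 to 8.33 and 2.58 to 5.48. The differences of the 3 genes between genotypes and over the earlier steps passed under none. MADS3 did not pass a filter on a mean of 5 FPKM or more and has no value there. The d1 minus WT difference of MADS3 over the stages turned to -0.025 with a pseudocount of 0.1, and ran from -0.017 to 0.099 with 1 stage left out, the sign turning without stage 7. The stage 4 minus stage 2 difference of MADS17 turned to -0.051 after quantile normalization. With a pseudocount of 0.1 the single-stage d1 minus WT differences were -0.27 and -0.36 for MADS3 at stages 1 and 2, 0.43 for MADS8 at stage 2 and 0.22 for MADS17 at stage 4. In these single-stage comparisons both groups were at or under 0.192 FPKM, where the pseudocount sets the size of a log2 difference. The cause of the other shifts was not tested.

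Counts over all genes moved more. For d1 against WT, 31 were called higher and 17 lower. The counts were 4 and 3 with no filter, 228 and 87 under the 5 FPKM filter, 12 and 9 after median scaling, 283 and 118 with array weights and 4 and 3 with no trend. With 1 stage left out they were 4 to 5 and 0 to 1. From stage 4 to 7 (377 higher, 389 lower) they were 230 and 167 with no filter, 219 higher under the 5 FPKM filter, and 160 to 436 and 157 to 386 with stage 1 or 2 left out. From stage 1 to 7 (2739 higher), 1682 were higher under the 5 FPKM filter. From stage 1 to 2 (65 higher, 16 lower), none was called with no filter (0 and 0), and with stage 4 or 7 left out 0 to 15 were higher and 0 to 5 lower. From stage 2 to 4 (730 higher, 476 lower), 409 were higher and 243 lower with no filter, and 230 to 405 were lower with stage 1 or 7 left out. No paired analysis was possible because the table holds 1 combined value per group and no column carries a replicate number; for the same reason no library could be left out in turn. Depth cannot be read from FPKM, so values under about 0.1 FPKM have no known error.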
